A study of Platycodon grandiflorus with 6 samples.

Results

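The enzymes that build and break down chlorophyll were taken from the unigenes of *P. grandiflorus*, the contigs of a transcriptome assembled without a genome. A unigene was a member when the name of its best SwissProt match held the name of one of these enzymes, and unigenes whose protein matches named peanut (*Arachis*) were skipped. The names found 267 of 152777 unigenes, 37 were skipped as peanut matches, and 230 members of 27 enzymes remained. The study compared callus with leaf in 3 libraries each to look for a β-glucosidase of saponin metabolism. Callus is unorganised tissue, here grown from stem pieces with nodes on MS medium with the auxin NAA at 1.0 mg/L and the cytokinin 6-BA at 0.5 mg/L, cultured for 50 days under 12 h of light a day. Leaves were taken from the original plants, which were untreated as far as the labels state. Explants and leaves came from the same batch of plantlets and the replicates were described as independent. The tissues therefore differ in organ of origin, hormones and growth conditions at once, and these cannot be told apart.

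Chlorophyll and heme are tetrapyrroles and share their first steps in the plastid. Glutamate bound to its tRNA is turned into aminolevulinate, whose condensation and ring closure lead to protoporphyrin IX. Insertion of iron then leads to heme, and insertion of magnesium leads through protochlorophyllide, which flowering plants reduce only in light, to chlorophyll. Breakdown starts with the conversion of chlorophyll b to a and goes on with loss of magnesium and phytol and opening of the ring.

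The libraries held between 18546158 and 19444638 expected counts in callus and between 17963458 and 18669613 in leaf. Leaf markers, the light-harvesting proteins, Rubisco small subunit, photosystem I and oxygen-evolving proteins, summed to between 12516 and 12987 FPKM (fragments scaled to contig length and library depth) in callus and between 33928 and 43008 FPKM in leaf, so callus held a good part of the leaf level of these mRNAs. Of 112 tested unigenes of these markers, 50 were lower and 1 was higher in callus, where 12.3% of all unigenes tested were lower and 14.2% higher. Dividing-cell markers (PCNA, histone H4, mitotic cyclins and ribonucleotide reductase) summed to between 287 and 491 FPKM in callus and between 295 and 407 FPKM in leaf. Histone H4 was the largest part of each sum and overlapped, with 155 to 300 FPKM in callus and 203 to 315 FPKM in leaf. PCNA, mitotic cyclins and ribonucleotide reductase were each higher in every callus library than in any leaf library. Of 55 tested unigenes of these markers 14 were higher and 5 lower in callus, beside the same shares over all unigenes. Peanut-matching unigenes held 1.17% of the counts of leaf replicate 1 and at most 0.347% of those of any other library.

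Members held 0.295, 0.279 and 0.275% of the counts in callus, against 0.638, 0.751 and 0.593% in leaf. Their summed FPKM was 1660, 1577 and 1555 in callus, against 3530, 3985 and 3219 in leaf. Every leaf value exceeded every callus value by more than the spread within a tissue. Between the tissues, the sum over the steps that form aminolevulinate differed by less than that spread, with 139 ± 5.58 FPKM in callus and 136 ± 4.19 FPKM in leaf (SD, n = 3 each, as for all values below). The shared steps up to protoporphyrin IX summed to 428 ± 6.78 FPKM in callus and 641 ± 10.4 FPKM in leaf, and the steps from magnesium insertion to chlorophyllide to 606 ± 11.8 FPKM in callus and 1846 ± 357 FPKM in leaf. For the phytol and chlorophyll b steps the sums were 198 ± 4.56 FPKM in callus and 247 ± 30.0 FPKM in leaf, and for breakdown 97.9 ± 25.7 FPKM in callus and 534 ± 56.8 FPKM in leaf. Callus was thus at 1.02, 0.669, 0.328, 0.802 and 0.183 times the leaf mean from the first of these groups to the last. The leaf marker sum stood at 0.329 times leaf in callus. In bulk tissue, fewer cells of a type and less RNA per cell cannot be told apart.

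Reads of near-identical contigs are divided among them by the counting tool, so the counts of all members of an enzyme were summed and tested as 1 row among all unigenes. A difference was called where the Benjamini-Hochberg adjusted p over 66118 rows was at most 0.05 in the quasi-likelihood test of edgeR, whatever its size. Values given with a standard error (SE) are log2 fold changes of callus over leaf. By this test 19 of the 27 enzymes were lower in callus, 2 were higher and 6 were not called. Among all rows tested 12.3% were lower and 14.2% higher. Nearly all of those rows are single contigs, while an enzyme row sums as many as 34. In the fit on clusters, where contigs are also summed, 20.8% were lower and 22.0% higher. The median log2 fold change (callus over leaf) was -0.90 over the enzymes and -0.10 over the table. The callus libraries lay below all leaf libraries for 23 enzymes, above them for 3 and among them for 1, and among all unigenes tested 25.5% lay below and 28.4% above. As a fraction of leaf in summed FPKM, 6 enzymes stood below the leaf markers in callus, namely ChlH, ChlD, the cyclase, chlorophyll synthase, NYC1 and pheophytinase. In shares of the library counts, where short contigs weigh less, the markers stood at 0.337 times leaf, ChlD at 0.369 and chlorophyll synthase at 0.440, and the other 4 remained below the markers. The part of the leaf markers in these differences was not tested.

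**Figure D1:**
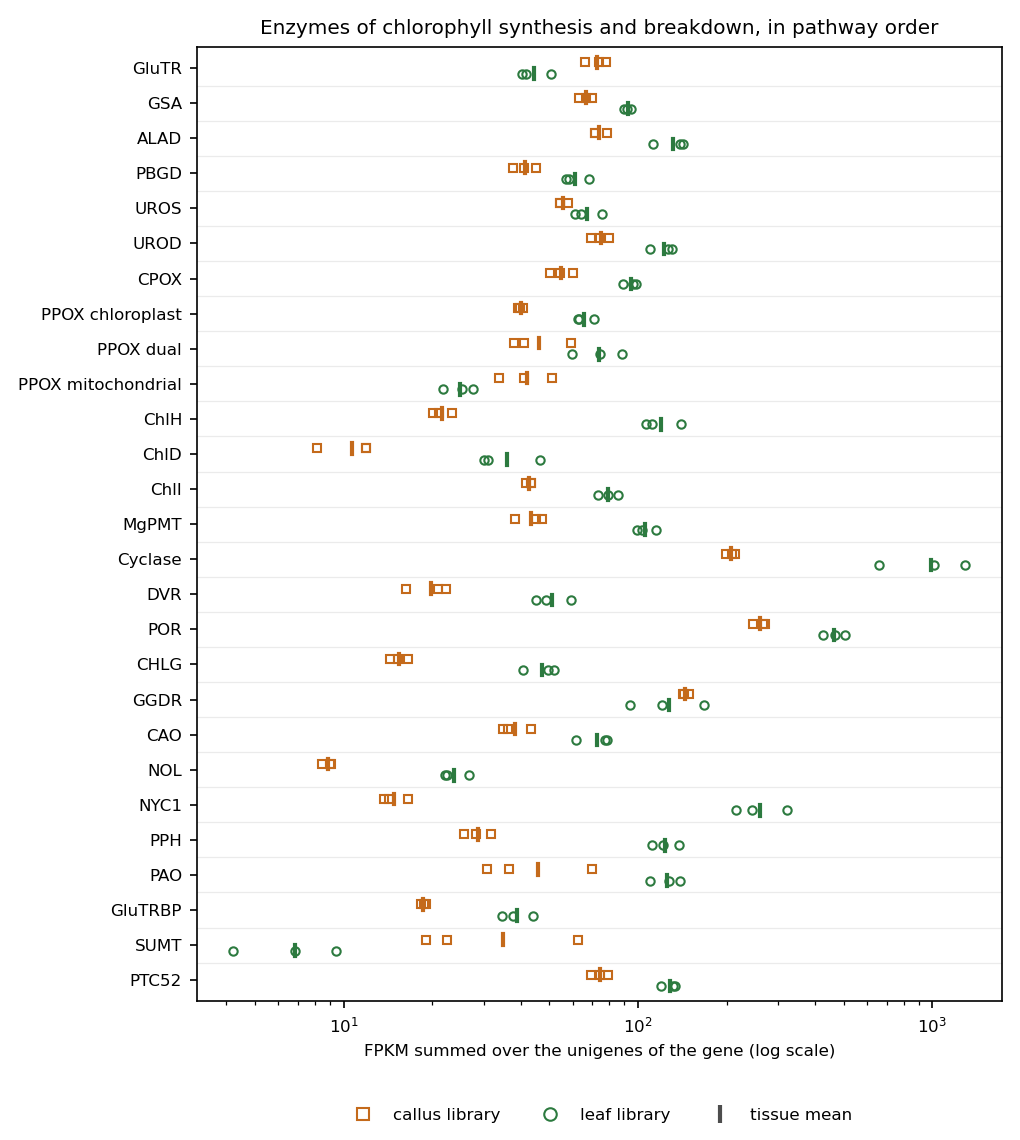
FPKM summed over the unigenes of each enzyme, on a log scale, for the 3 callus libraries (squares) and the 3 leaf libraries (circles), with a bar at each tissue mean. Callus lies below leaf for 23 of 27 enzymes, and above it for GluTR, mitochondrial PPOX and SUMT.

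The number of enzymes called fell most when a callus library was left out. Without callus replicate 1, 2 or 3 edgeR called 9, 4 and 3 enzymes lower. Without leaf replicate 1, 2 or 3 it called 18, 16 and 15 lower. Without leaf replicate 2 it called 1 enzyme higher, and without any other library 0. The share of all rows called was not worked out for these fits, so the loss is not shown to be particular to these enzymes. The direction of all 27 enzymes was the same under each of 12 alternative settings (other scaling, filter or test, each library left out, peanut matches left out), and the calls of 3 enzymes, ChlH, NYC1 and pheophytinase, held in each of them. At a stricter threshold, an adjusted p of 0.001 and a 2-fold change, edgeR called 0 enzymes, although 25 had an unadjusted p under 0.05, and DESeq2 called 7 enzymes, each lower in callus, where it called 5.41% of all rows lower and 7.43% higher.

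**Figure D2:**
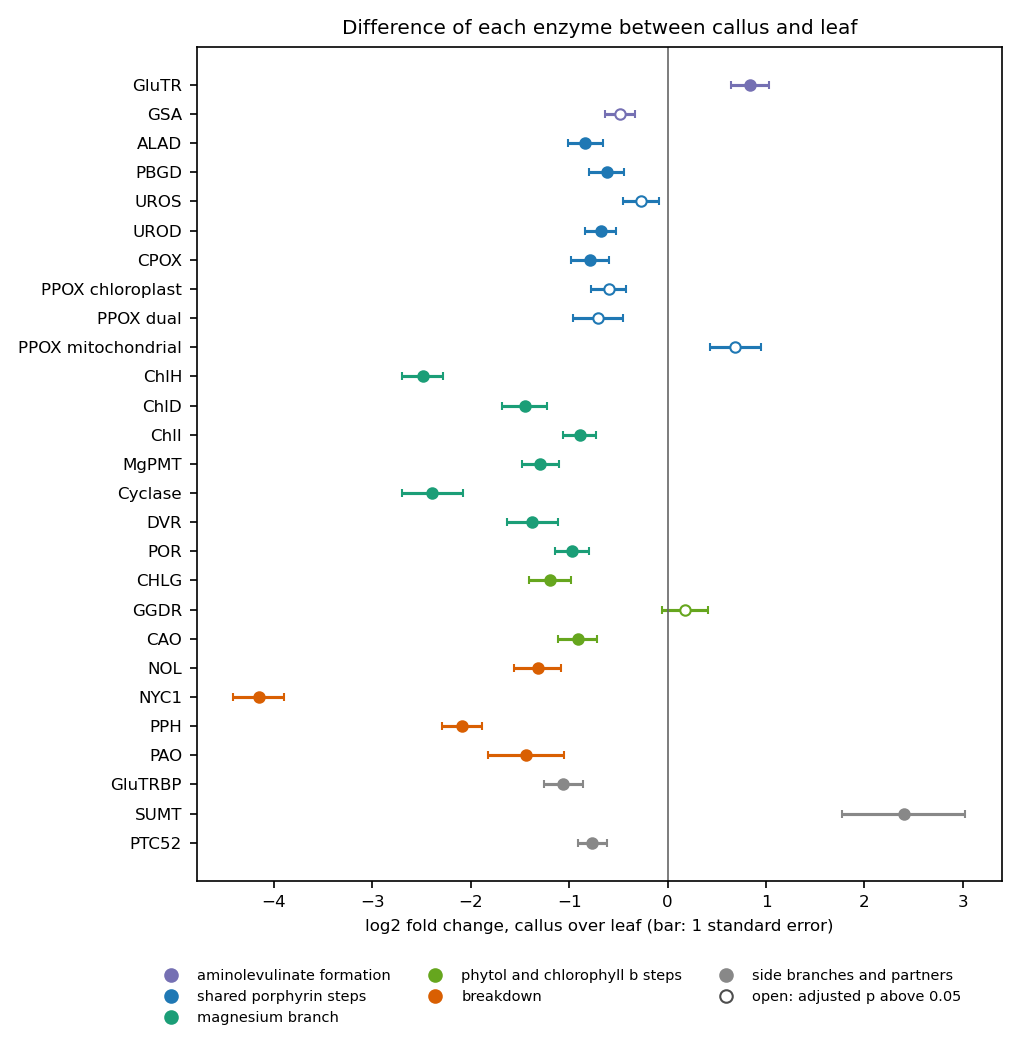
Log2 fold change of callus over leaf for each enzyme in pathway order, with 1 standard error, coloured by part of the pathway. All 7 enzymes of the magnesium branch and all 4 of breakdown lie left of 0 and are filled (called), with NYC1 farthest left at -4.15, while GluTR at 0.84 and SUMT at 2.40 are called to the right.

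At the entry of the pathway 1 of 2 enzymes was called, and it was higher in callus. Glutamyl-tRNA reductase (GluTR), which reduces glutamyl-tRNA and is the main control point of tetrapyrrole synthesis, had 78.2, 73.6 and 66.2 FPKM in callus, against 40.4, 50.5 and 41.7 FPKM in leaf. Each callus library was above each leaf library, and the log2 fold change was 0.84 ± 0.19 SE (adjusted p = 0.0271, edgeR). The next enzyme, glutamate-1-semialdehyde aminomutase (GSA), which forms aminolevulinate, had 63.1, 69.6 and 66.5 FPKM in callus, against 91.8, 90.0 and 95.1 FPKM in leaf. The callus values were all below the leaf values, but at -0.48 ± 0.15 SE (adjusted p = 0.0616, edgeR) GSA was not called. The GluTR call was lost without any 1 callus library or leaf replicate 1 or 3 (edgeR adjusted p between 0.0537 and 0.0864), while its log2 fold change stayed between 0.78 and 0.96 whichever library was left out.

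The most abundant GluTR unigene, with 70.0% of the FPKM of the enzyme over all libraries, was CL8508.Contig1_All, named for glutamyl-tRNA reductase 1, with 62.8, 60.3 and 53.8 FPKM in callus, against 28.2, 22.2 and 18.1 FPKM in leaf. It was higher in callus at 1.37 ± 0.23 SE (adjusted p = 0.012, edgeR). This call was lost without callus replicate 2 or 3 (edgeR adjusted p between 0.0581 and 0.062). The most abundant unigene named for glutamyl-tRNA reductase 2, CL9584.Contig2_All, had 5.33, 5.77 and 4.89 FPKM in callus, against 3.93, 5.78 and 5.61 FPKM in leaf, with overlapping tissues and a log2 fold change of 0.05 ± 0.31 SE (adjusted p = 0.92, edgeR), which turned to -0.13 without leaf replicate 1. The glutamyl-tRNA reductase-binding protein (GluTRBP), which holds part of GluTR at the thylakoid membrane, had 18.8, 18.3 and 19 FPKM in callus, against 44.0, 37.6 and 34.6 FPKM in leaf. It was lower in callus, at -1.06 ± 0.20 SE (adjusted p = 0.015, edgeR), so that the ratio of GluTR to its binding protein was 4.17, 4.02 and 3.48 in callus, against 0.916, 1.34 and 1.21 in leaf. The GluTRBP call was lost without any 1 callus library (edgeR adjusted p between 0.0506 and 0.0854).

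In the steps from aminolevulinate to protoporphyrin IX, which also feed heme, 4 of 8 enzymes were lower in callus and the other 4 were not called. Aminolevulinic acid dehydratase (ALAD), which makes porphobilinogen, had 71.5, 71.7 and 78.4 FPKM in callus, against 113, 142 and 139 FPKM in leaf, a log2 fold change of -0.84 ± 0.18 SE (adjusted p = 0.0213, edgeR). Uroporphyrinogen decarboxylase (UROD), which removes carboxyl groups from the ring, had 69.5, 79.8 and 74.6 FPKM in callus, against 126, 110.0 and 131 FPKM in leaf, a log2 fold change of -0.68 ± 0.16 SE (adjusted p = 0.0266, edgeR). For both the tissues did not overlap. The ALAD call was lost without any 1 callus library (edgeR adjusted p between 0.0683 and 0.0962) and that of UROD without any 1 callus library or leaf replicate 3 (edgeR adjusted p between 0.0538 and 0.131).

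Coproporphyrinogen-III oxidase (CPOX), a single unigene, had 60.01, 50.4 and 54.4 FPKM in callus, against 88.8, 98.3 and 96.6 FPKM in leaf, a log2 fold change of -0.79 ± 0.19 SE (adjusted p = 0.0303, edgeR). Porphobilinogen deaminase (PBGD), which joins porphobilinogen into a chain, had 37.8, 45.2 and 41.1 FPKM in callus, against 68.1, 57.1 and 58.1 FPKM in leaf and just passed at -0.62 ± 0.18 SE (adjusted p = 0.0495, edgeR). Uroporphyrinogen-III synthase (UROS), which closes the ring, had 54.5, 54.4 and 57.8 FPKM in callus, against 75.5, 64.3 and 61.2 FPKM in leaf and was not called at -0.27 ± 0.19 SE (adjusted p = 0.313, edgeR). The CPOX call was lost without any 1 callus library or leaf replicate 2 or 3 (edgeR adjusted p between 0.0563 and 0.137) and that of PBGD without any 1 callus library or any 1 leaf library (edgeR adjusted p between 0.0652 and 0.193).

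Single contigs of these enzymes did not all follow the sum. The PBGD contig that was most abundant, CL7150.Contig3_All, had 15.2, 24.4 and 20.6 FPKM in callus, against 5.78, 25.2 and 29.3 FPKM in leaf, while CL7150.Contig1_All of the same cluster had 8.92, 7.79 and 7.38 FPKM in callus, against 43.5, 14.6 and 13.8 FPKM in leaf. Leaf replicate 1 was lowest of all libraries for the first contig and highest for the second, and neither contig was called (edgeR adjusted p = 0.976 and edgeR adjusted p = 0.0664), the first turning to 0.34 on the log2 scale without leaf replicate 3. The UROS contig CL3720.Contig6_All was lower in callus, with 15.2, 12.1 and 13.8 FPKM in callus, against 38.3, 24.9 and 31.6 FPKM in leaf and -1.20 ± 0.26 SE (adjusted p = 0.0215, edgeR). Of the same cluster, CL3720.Contig7_All had 16.9, 17.7 and 15.6 FPKM in callus, against 3.92, 18.2 and 5.65 FPKM in leaf, a log2 fold change of 0.82 ± 0.62 SE (adjusted p = 0.365, edgeR), and without leaf replicate 2 it was called (log2 fold change 1.83, edgeR adjusted p = 0.0258). The CL3720.Contig6_All call was lost without any 1 callus library (edgeR adjusted p between 0.0546 and 0.104). When the contigs of each cluster were summed, UROS cluster CL3720 was lower in callus at -0.52 ± 0.12 SE (adjusted p = 0.0175, edgeR) and the minor UROS cluster CL13358 was higher, with 8.86, 10.7 and 11.3 FPKM in callus, against 2.05, 3.23 and 2.66 FPKM in leaf and 2.00 ± 0.45 SE (adjusted p = 0.015, edgeR). In the fit on clusters 20.8% of clusters were lower and 22.0% higher.

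The most abundant ALAD unigene, CL1210.Contig2_All, held 84.4% of its enzyme, with 63.0, 59.1 and 65.97 FPKM in callus, against 82.7, 123 and 125 FPKM in leaf and -0.83 ± 0.24 SE (adjusted p = 0.0499, edgeR). The leading UROD unigene, CL8688.Contig2_All, and the leading unigene named for UROD 1, CL515.Contig12_All, had log2 fold changes of -0.82 ± 0.21 SE (adjusted p = 0.0362, edgeR) and -1.33 ± 0.26 SE (adjusted p = 0.0169, edgeR). Their calls were lost without any 1 callus library or leaf replicate 2 or 3 (edgeR adjusted p between 0.108 and 0.175) for the ALAD unigene, without any 1 callus library or leaf replicate 2 or 3 (edgeR adjusted p between 0.0762 and 0.155) for the first UROD unigene and without any 1 callus library (edgeR adjusted p between 0.0513 and 0.0893) for the second.

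Protoporphyrinogen oxidase (PPOX) makes protoporphyrin IX, the last precursor that chlorophyll and heme have in common, and plants hold a plastid and a mitochondrial form. The plastid form had 39.9, 40.7 and 39.3 FPKM in callus, against 63.2, 70.9 and 62.4 FPKM in leaf, with -0.60 ± 0.18 SE (adjusted p = 0.0516, edgeR). Its most abundant unigene, CL2845.Contig4_All, had a log2 fold change of -0.55 ± 0.21 SE (adjusted p = 0.0987, edgeR). The unigene named for PPOX 2 of chloroplast or mitochondrion, Unigene17367_All, had 37.9, 59.4 and 41.1 FPKM in callus, against 74.2, 88.4 and 59.6 FPKM in leaf and -0.70 ± 0.26 SE (adjusted p = 0.091, edgeR). These 2 forms were not called, but for the plastid form without leaf replicate 1 it was called (log2 fold change -0.67, edgeR adjusted p = 0.0497).

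Unigenes named for mitochondrial PPOX had 51.0, 33.8 and 41.0 FPKM in callus, against 25.2, 21.8 and 27.6 FPKM in leaf, each callus library above each leaf library, but were not called at 0.69 ± 0.26 SE (adjusted p = 0.0967, edgeR). Only 4 of these 16 unigenes carry the KEGG number of the enzyme, and the sum over those passed, with a log2 fold change of 1.09 (edgeR adjusted p = 0.0372). They include the 3 contigs of cluster CL6759, with 44.7, 27.0 and 34.8 FPKM in callus, against 17.1, 13.3 and 16.5 FPKM in leaf, which passed in the fit on clusters at 1.09 ± 0.24 SE (adjusted p = 0.014, edgeR). Its contigs CL6759.Contig2_All and CL6759.Contig1_All, the leading ones in callus and in leaf, had log2 fold changes of 2.07 ± 0.65 SE (adjusted p = 0.0628, edgeR) and 0.66 ± 0.31 SE (adjusted p = 0.165, edgeR). For the first, without leaf replicate 2 it was called (log2 fold change 1.64, edgeR adjusted p = 0.0438). In the other cluster with this name, CL1818, 12 of 33 contigs are members, all without the KEGG number. Summed over all 33 contigs it was lower in callus, with 10.3, 11.2 and 10.3 FPKM in callus, against 24.2, 18.8 and 23.3 FPKM in leaf and -1.28 ± 0.17 SE (adjusted p = 0.00296, edgeR). Its 12 members alone had 4.43, 6.11 and 5.13 FPKM in callus, against 7.46, 7.47 and 9.76 FPKM in leaf, and were not tested as a sum. The ratio of mitochondrial to plastid PPOX was 1.28, 0.831 and 1.04 in callus, against 0.399, 0.307 and 0.442 in leaf.

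From magnesium insertion onward all 7 enzymes were lower in callus. Magnesium chelatase puts magnesium into protoporphyrin IX with 3 subunits, of which ChlH binds the porphyrin and ChlI and ChlD form the ATPase part. ChlH had 21.1, 20.2 and 23.4 FPKM in callus, against 112, 140.5 and 107 FPKM in leaf. The groups were far apart, and ChlH was lower at -2.49 ± 0.21 SE (adjusted p = 0.00424, edgeR), a call that held without any 1 library (log2 fold change between -2.56 and -2.31). Its leading unigene, CL4450.Contig1_All, held 96.7% of the sum and had a log2 fold change of -2.47 ± 0.21 SE (adjusted p = 0.00428, edgeR).

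The other chelatase subunits were lower by less. ChlI, of which Unigene13954_All made up 97.0%, had 43.3, 41.5 and 43.2 FPKM in callus, against 85.8, 73.3 and 79.2 FPKM in leaf, a log2 fold change of -0.90 ± 0.17 SE (adjusted p = 0.0151, edgeR). ChlD had 8.14, 11.9 and 11.9 FPKM in callus, against 46.4, 29.9 and 31.0 FPKM in leaf, a log2 fold change of -1.45 ± 0.23 SE (adjusted p = 0.0105, edgeR). The ratio of ChlI to ChlH was therefore 2.05, 2.058 and 1.85 in callus, against 0.767, 0.522 and 0.741 in leaf. Neither of the ChlD unigenes that lead in callus and in leaf, CL9755.Contig2_All and Unigene22201_All, was called alone (edgeR adjusted p = 0.0805 and edgeR adjusted p = 0.0974), and Unigene22201_All had 0, 0.130 and 2.13 FPKM in callus, against 20.5, 10.0 and 8.24 FPKM in leaf. The ChlI call was lost without callus replicate 2 or 3 (edgeR adjusted p between 0.0755 and 0.0845) and that of ChlD without callus replicate 2 or 3 (edgeR adjusted p between 0.0537 and 0.0677).

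Magnesium protoporphyrin IX methyltransferase (MgPMT), which esterifies the product of the chelatase, had 44.9, 47.3 and 38.2 FPKM in callus, against 115, 103 and 99.5 FPKM in leaf. It was lower in callus, at -1.29 ± 0.19 SE (adjusted p = 0.00914, edgeR). Divinyl chlorophyllide a 8-vinyl-reductase (DVR), which reduces a vinyl side chain, had 20.9, 16.3 and 22.3 FPKM in callus, against 45.01, 59.4 and 48.6 FPKM in leaf, at -1.37 ± 0.26 SE (adjusted p = 0.0161, edgeR). Both were apart in every library. Only 1 of the 3 DVR-named unigenes, Unigene1237_All, carries the KEGG number of the enzyme, and it held 93.3% of the sum with a log2 fold change of -1.36 ± 0.23 SE (adjusted p = 0.0117, edgeR). The MgPMT call was lost without callus replicate 2 or 3 (edgeR adjusted p between 0.0533 and 0.0627) and that of DVR without any 1 callus library (edgeR adjusted p between 0.0517 and 0.0752).

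The magnesium-protoporphyrin IX monomethyl ester cyclase, which forms the fifth ring of chlorophyll, was the most abundant enzyme of the pathway in leaf. Its 16 unigenes summed to 213, 199.9 and 208 FPKM in callus, against 1010.3, 1296 and 661 FPKM in leaf. That was 12.9, 12.7 and 13.4% of the FPKM of all members in callus, against 28.6, 32.5 and 20.5% in leaf. The log2 fold change was -2.39 ± 0.31 SE (adjusted p = 0.00739, edgeR), and the call was lost without callus replicate 3 (edgeR adjusted p = 0.0567). The leaf values spread widely, with an SD of 32.2% of the mean against 3.24% in callus.

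Contigs of the cyclase differed between tissues and between leaf libraries. Unigene16397_All, the most abundant, had 81.5, 66.7 and 75.5 FPKM in callus, against 548, 913 and 456 FPKM in leaf, a log2 fold change of -3.11 ± 0.35 SE (adjusted p = 0.00584, edgeR), a call lost without callus replicate 3 (edgeR adjusted p = 0.0509). The contigs named next were chosen after their values were seen. Unigene59645_All had 51.2, 53.1 and 53.1 FPKM in callus, against 1.42, 1.46 and 0 FPKM in leaf, which is 24.0, 26.6 and 25.5% of the enzyme in callus, against 0.141, 0.113 and 0% in leaf. Unigene71002_All had 0.290, 0.330 and 0.130 FPKM in callus, against 364, 3.23 and 1.86 FPKM in leaf and Unigene16398_All had 0.340, 0.110 and 0.220 FPKM in callus, against 1.61, 179 and 0.950 FPKM in leaf, each high in a single leaf library. Unigene16400_All had 66.2, 64.6 and 65.9 FPKM in callus, against 1.86, 89.7 and 116 FPKM in leaf, and was low in leaf replicate 1 only.

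**Figure D3:**
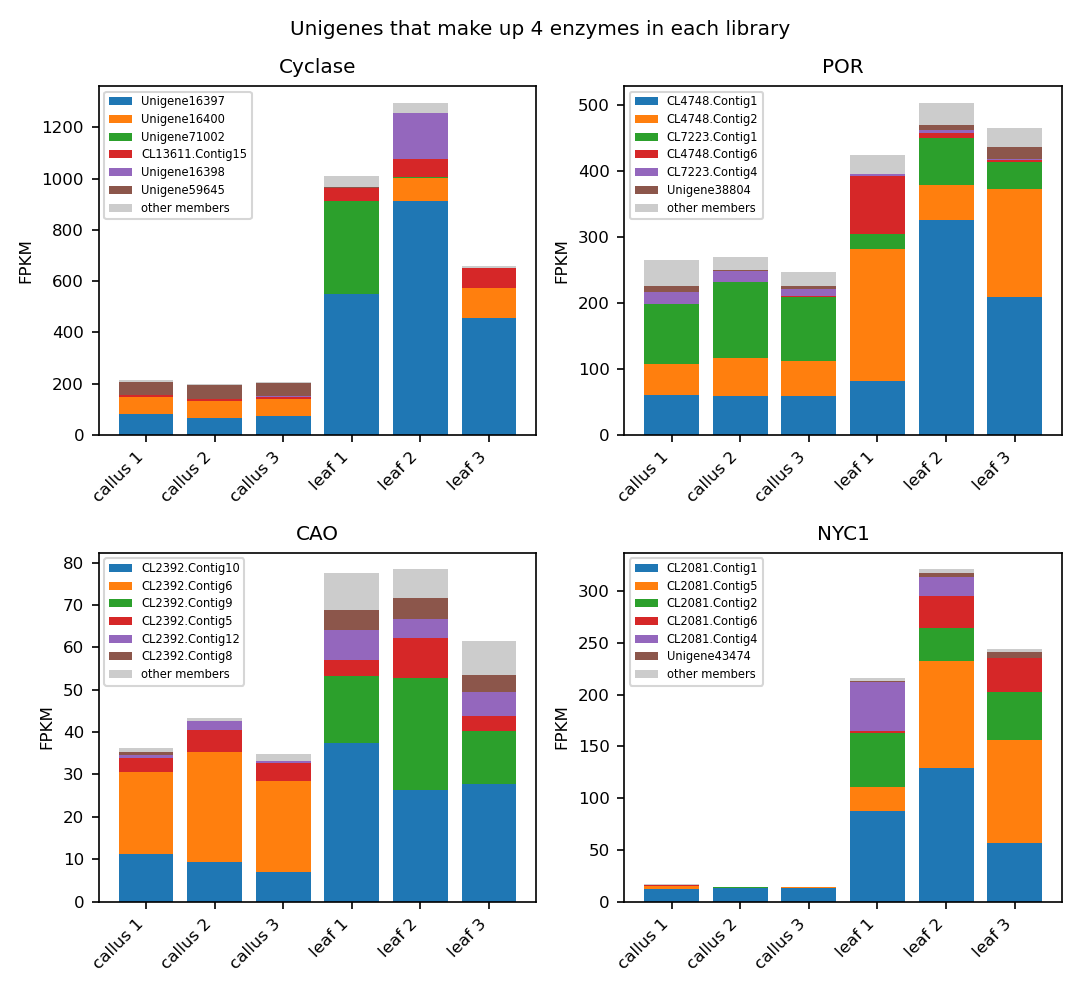
FPKM of the 6 most abundant unigenes and of the other members, stacked for each callus library and each leaf library, for the cyclase, POR, CAO and NYC1. The same contigs make up the cyclase in all callus libraries, while leaf replicates 1 and 2 each hold a contig (Unigene71002_All and Unigene16398_All) that is near 0 in the others.

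Contigs found mostly in 1 library were more frequent in leaf replicate 1 than elsewhere. Of 98 members with a leaf FPKM of 5 or more, 9 had at least 80% of their leaf FPKM in replicate 1, 2 in replicate 2 and 1 in replicate 3. In callus the numbers were 1, 0 and 0 of 64 members. Sums over an enzyme had a median SD of 7.58% of the mean in callus and 11.8% in leaf.

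Protochlorophyllide reductase (POR), the light-dependent step that makes chlorophyllide, was the most abundant enzyme in callus, with 266, 270.4 and 247 FPKM in callus, against 426, 504 and 466 FPKM in leaf. Its sum was lower in callus, at -0.98 ± 0.17 SE (adjusted p = 0.0134, edgeR), and the call was lost without callus replicate 2 or 3 (edgeR adjusted p between 0.0643 and 0.0755). The 2 main POR clusters had fold changes of opposite sign. Summed over contigs, CL4748 had 111, 121 and 117 FPKM in callus, against 384, 395 and 384 FPKM in leaf and was lower in callus at -1.91 ± 0.14 SE (adjusted p = 0.000642, edgeR). Cluster CL7223 had 113, 134 and 115 FPKM in callus, against 29.4, 77.6 and 45.8 FPKM in leaf, each callus library above each leaf library, but was not called at 1.08 ± 0.36 SE (adjusted p = 0.0527, edgeR).

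Within these clusters, CL4748.Contig1_All was lower in callus, with 60.3, 58.7 and 58.7 FPKM in callus, against 82.0, 326 and 209 FPKM in leaf and -1.82 ± 0.51 SE (adjusted p = 0.0463, edgeR). The contig that led in callus, CL7223.Contig1_All, had 90.8, 115 and 97.0 FPKM in callus, against 23.0, 70.8 and 40.1 FPKM in leaf and was not called at 1.15 ± 0.44 SE (adjusted p = 0.101, edgeR), although without leaf replicate 2 it was called (log2 fold change 1.70, edgeR adjusted p = 0.0303). The minor CL7223.Contig4_All, chosen after its values were seen, was higher in callus at 2.52 ± 0.53 SE (adjusted p = 0.0205, edgeR). Both POR clusters carry the KEGG number of the enzyme, and 9 of the 21 POR-named unigenes do not. With those 9 left out, the log2 fold change of POR was -1.04 (edgeR adjusted p = 0.0106). The CL4748.Contig1_All call was lost without any 1 callus library or leaf replicate 2 or 3 (edgeR adjusted p between 0.0854 and 0.159).

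The last steps attach phytol and make chlorophyll b. Chlorophyll synthase (CHLG), which joins chlorophyllide and phytol, had 16.5, 14.4 and 15.3 FPKM in callus, against 40.8, 49.5 and 51.95 FPKM in leaf, with no overlap and -1.19 ± 0.21 SE (adjusted p = 0.0139, edgeR). Geranylgeranyl diphosphate reductase (GGDR), which supplies phytol to chlorophyll and to tocopherol, had 149, 142 and 143 FPKM in callus, against 121, 94.3 and 167 FPKM in leaf. This was the enzyme whose tissues overlapped, at 0.18 ± 0.23 SE (adjusted p = 0.593, edgeR), and its leading unigene CL2136.Contig1_All was at 0.18 ± 0.24 SE (adjusted p = 0.603, edgeR). The ratio of GGDR to chlorophyll synthase was 9.02, 9.87 and 9.33 in callus, against 2.97, 1.90 and 3.22 in leaf. The leading CHLG unigene, CL7030.Contig2_All, was lower at -1.08 ± 0.24 SE (adjusted p = 0.0229, edgeR), and the call was lost without any 1 callus library (edgeR adjusted p between 0.0799 and 0.0989), that of the CHLG sum without any 1 callus library (edgeR adjusted p between 0.0539 and 0.0748).

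Chlorophyllide a oxygenase (CAO), which turns the a form of the pigment into the b form, had 36.2, 43.4 and 34.9 FPKM in callus, against 77.5, 78.5 and 61.5 FPKM in leaf and was lower in callus at -0.91 ± 0.20 SE (adjusted p = 0.0218, edgeR). All 12 CAO unigenes are contigs of 1 cluster, and its leading contigs differed between tissues. CL2392.Contig6_All had 19.3, 26.1 and 21.5 FPKM in callus, against 0, 0 and 0 FPKM in leaf, with 0 counts in every leaf library, and against a floor of 3 counts over the leaf group callus was at least 996-fold higher. The reverse held for CL2392.Contig9_All, chosen after its values were seen, with 0, 0 and 0 FPKM in callus, against 15.8, 26.4 and 12.4 FPKM in leaf, at least 788-fold lower in callus against the same floor over the callus group. Both contigs passed the filter on low counts through 1 tissue alone, so their difference is a description. The contig most abundant over both tissues, CL2392.Contig10_All, had 11.3, 9.26 and 7.06 FPKM in callus, against 37.4, 26.4 and 27.7 FPKM in leaf and -1.72 ± 0.29 SE (adjusted p = 0.0115, edgeR). The CAO sum lost its call without any 1 callus library (edgeR adjusted p between 0.0727 and 0.112), and CL2392.Contig10_All without callus replicate 2 or 3 (edgeR adjusted p between 0.0633 and 0.0658).

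As a sum, breakdown was the part of the pathway lowest in callus relative to leaf, with all 4 enzymes called. NYC1 held the largest part of the leaf sum. Callus stood at 0.057 times leaf for NYC1, 0.231 for pheophytinase, 0.364 for pheophorbide a oxygenase and 0.372 for NOL. In the magnesium branch ChlH stood at 0.180 and the cyclase at 0.209. Breakdown genes outside the name rule stood higher in summed FPKM, with HCAR at 0.405, STAY-GREEN at 0.588, RCCR at 0.604 and chlorophyllase at 0.633. In the fit on summed counts HCAR and chlorophyllase did not, at 0.3996 and 0.3932 times leaf beside 0.4002 for NOL. There STAY-GREEN and RCCR remained higher, at 0.628 and 0.604. NYC1, a chlorophyll b reductase that starts the conversion of chlorophyll b to a, had 16.5, 13.7 and 14.3 FPKM in callus, against 216, 321 and 244 FPKM in leaf. It was 17.8-fold lower in callus, -4.15 ± 0.26 SE (adjusted p = 0.00361, edgeR), the largest difference among the 27 enzymes, and passed without any 1 library (log2 fold change between -4.28 and -3.94). NYC1 was the third most abundant enzyme in leaf and ranked 25 of 27 in callus. Its leading unigene, CL2081.Contig1_All, had 11.8, 13.4 and 13.6 FPKM in callus, against 87.5, 129 and 56.2 FPKM in leaf and -2.83 ± 0.36 SE (adjusted p = 0.00716, edgeR), a call lost without callus replicate 3 (edgeR adjusted p = 0.056). The related reductase NOL, which works with NYC1, was low in both tissues, with 9.07, 8.98 and 8.44 FPKM in callus, against 22.2, 26.7 and 22.4 FPKM in leaf, and was lower in callus at -1.32 ± 0.24 SE (adjusted p = 0.0144, edgeR).

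The most abundant NOL contig, CL6881.Contig1_All, had 6.35, 6.16 and 5.67 FPKM in callus, against 5.44, 6.19 and 13.0 FPKM in leaf and was not called at -0.44 ± 0.43 SE (adjusted p = 0.475, edgeR), turning to 0.06 on the log2 scale without leaf replicate 3. The NOL sum lost its call without any 1 callus library (edgeR adjusted p between 0.0534 and 0.0866).

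Pheophytinase (PPH), which removes phytol from chlorophyll that has lost its magnesium, had 31.8, 25.6 and 28.2 FPKM in callus, against 138, 112 and 122 FPKM in leaf. The difference was -2.09 ± 0.20 SE (adjusted p = 0.00483, edgeR) and passed without any 1 library (log2 fold change between -2.19 and -1.95). Of its 34 unigenes, 12 have an NR match that names pheophytinase or holds the letters PPD. The others rest on the SwissProt name alone, because the list held no KEGG number for this enzyme. The leading Unigene30161_All had 21.1, 12.2 and 14.0 FPKM in callus, against 59.9, 48.9 and 66.5 FPKM in leaf, at -1.88 ± 0.31 SE (adjusted p = 0.0112, edgeR), a call lost without callus replicate 2 or 3 (edgeR adjusted p between 0.0566 and 0.0685). Pheophorbide a oxygenase (PAO), which opens the ring, had 69.8, 30.7 and 36.4 FPKM in callus, against 127, 139 and 110.0 FPKM in leaf. Callus replicate 1 was well above the other callus libraries but below every leaf library, and PAO was lower in callus at -1.44 ± 0.39 SE (adjusted p = 0.0409, edgeR). Without callus replicate 1 the log2 fold change was -1.91, and the call was lost without callus replicate 2 or 3 or any 1 leaf library (edgeR adjusted p between 0.0675 and 0.153). Its leading unigene, Unigene32998_All, was at -1.42 ± 0.39 SE (adjusted p = 0.0423, edgeR), lost without callus replicate 2 or 3 or any 1 leaf library (edgeR adjusted p between 0.0701 and 0.158).

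Besides GluTRBP, 2 proteins at the side of the pathway were included by name. Uroporphyrinogen-III C-methyltransferase (SUMT), which takes uroporphyrinogen III to siroheme, the cofactor of sulfite and nitrite reductase, had 62.8, 19.02 and 22.4 FPKM in callus, against 4.22, 6.84 and 9.45 FPKM in leaf. All callus values exceeded all leaf values, with callus replicate 1 far above the others, and the log2 fold change was 2.40 ± 0.63 SE (adjusted p = 0.0379, edgeR). Its main unigene, Unigene33375_All, had 56.5, 17.6 and 20.6 FPKM in callus, against 4.10, 6.50 and 9.06 FPKM in leaf and 2.29 ± 0.61 SE (adjusted p = 0.0396, edgeR). Without callus replicate 1 the SUMT sum had a log2 fold change of 1.61 (edgeR adjusted p = 0.071), and the call was lost without any 1 callus library or any 1 leaf library (edgeR adjusted p between 0.0587 and 0.0917). That of Unigene33375_All was lost without any 1 callus library or any 1 leaf library (edgeR adjusted p between 0.0592 and 0.0951). PTC52, a plastid envelope protein related to PAO, had 69.1, 74.3 and 79.3 FPKM in callus, against 133, 119.7 and 132 FPKM in leaf, at -0.76 ± 0.15 SE (adjusted p = 0.017, edgeR), lost without any 1 callus library (edgeR adjusted p between 0.0566 and 0.0813). Its leading unigene, CL3004.Contig2_All, was not called at -0.04 ± 0.24 SE (adjusted p = 0.908, edgeR), turning to 0.15 on the log2 scale without leaf replicate 2.

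Ratios within a library do not depend on how libraries are scaled. The ratio of GluTR to ChlH, the first enzyme of the pathway to the first of the magnesium branch, was 3.69, 3.65 and 2.83 in callus, against 0.361, 0.3596 and 0.391 in leaf. That of ChlH to ferrochelatase, the enzymes that compete for protoporphyrin IX, was 0.424, 0.371 and 0.481 in callus, against 1.07, 1.44 and 0.902 in leaf. For the 6 ratios plotted the tissues did not overlap. With 3 libraries against 3 an exact permutation test cannot give a two-sided p below 0.1. For GluTR to ChlH, GluTR to its binding protein and mitochondrial to plastid PPOX, the separation follows from the enzyme values above. In each of these pairs every callus library was above leaf for the first enzyme and below leaf for the second. The pairs and the choice of those plotted were not set in advance, so the ratios are a description. The ratio of ChlD to ChlH, which is not plotted, overlapped, with 0.385, 0.591 and 0.511 in callus, against 0.415, 0.213 and 0.290 in leaf.

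**Figure D4:**
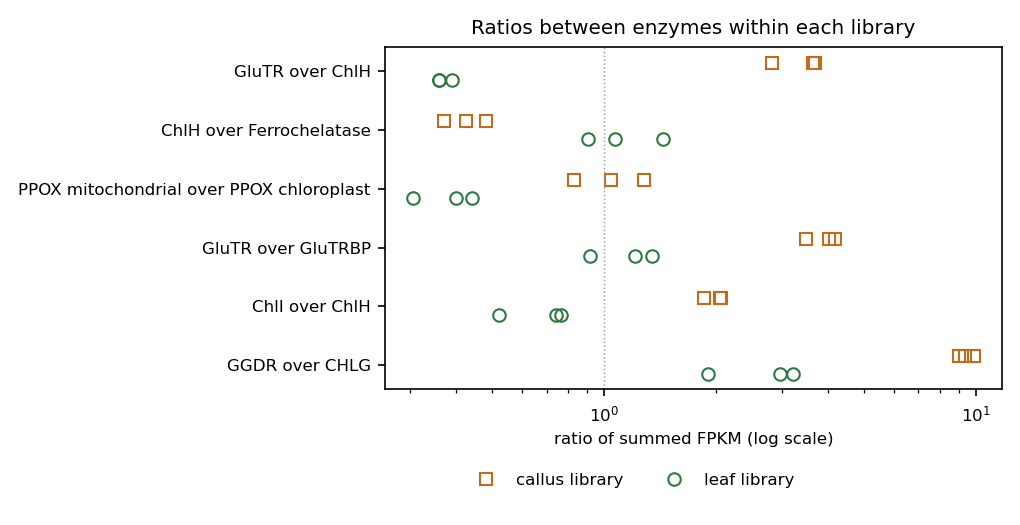
Ratio of the summed FPKM of pairs of enzymes in each callus library (squares) and leaf library (circles), on a log scale with a dotted line at 1. GluTR over ChlH lies between 2.83 and 3.69 in callus and between 0.3596 and 0.391 in leaf.

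Single members were also tested as they stand, among 66307 unigenes. Of the 230 members, 65 did not pass the filter on low counts, among them the 23 with no counts in any library, and 165 were tested. Of these 45 were lower and 8 higher in callus, where 12.3% of all unigenes tested were lower and 14.2% higher. Without callus replicate 1, 2 or 3, 23, 7 and 5 members were lower and 2, 1 and 1 higher. Without leaf replicate 3, 36 were lower and 5 higher. Shares over all unigenes were not worked out for the fits with a library left out. The 8 belong to GluTR, ALAD, UROS, the cyclase, POR, CAO and, with 2 unigenes, SUMT. A member seen in 1 tissue only passes the filter through that tissue, so these counts are a description. Members fall into 79 clusters or single unigenes. All contigs of each cluster were summed, members or not, and 69 of these sums were tested. In callus 41 were lower, 6 were higher and 22 were not called, where 20.8% of all clusters tested were lower and 22.0% higher. Some of the lower clusters hold mostly other contigs, such as CL3161 with 2 members of 12 contigs and CL1554 with 1 of 3.

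Members shared more than their names. All 230 had their best protein match in a land plant, of 39 species in all, and 167 of the 193 members whose enzyme has a KEGG number in the list carry that number. The other 26 belong to POR, mitochondrial PPOX, the cyclase and DVR. A cyclase-named contig, CL13611.Contig15_All, chosen after its values were seen, has an NR match to another protein, FREE1, and had 9.33, 8.99 and 8.92 FPKM in callus, against 48.7, 68.2 and 77.7 FPKM in leaf. The members were between 205 and 4818 bp long, and because contigs are pieces of transcripts no position in a genome is given.

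Other genes of tetrapyrrole metabolism, taken by name from a list, were summed in the same way. Of 16 genes 15 were found, and 9 were lower in callus and 6 were not called, with a median log2 fold change of -0.97. Among all rows tested, nearly all of them single contigs, 12.3% were lower and the median was -0.10. In the heme and bilin branch, ferrochelatase, which inserts iron, had 49.9, 54.4 and 48.6 FPKM in callus, against 105, 97.4 and 118 FPKM in leaf, a log2 fold change of -0.97 ± 0.16 SE (adjusted p = 0.012, edgeR). Heme oxygenase, which opens heme to biliverdin, was at -0.74 ± 0.17 SE (adjusted p = 0.0275, edgeR) and HY2, which makes the phytochrome chromophore, at -1.01 ± 0.27 SE (adjusted p = 0.0406, edgeR). SirB, which adds iron in siroheme synthesis, had 18.5, 18.9 and 20.4 FPKM in callus, against 31.1, 29.5 and 26.9 FPKM in leaf and was not called (edgeR adjusted p = 0.0692).

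YCF54, a partner the cyclase needs, had 37.7, 48.3 and 44.5 FPKM in callus, against 161, 135 and 160.5 FPKM in leaf and the largest difference of these genes, -1.80 ± 0.17 SE (adjusted p = 0.00476, edgeR). FLU, which restrains GluTR in the dark, had 11.1, 13.2 and 13.0 FPKM in callus, against 27.4, 25.3 and 28.2 FPKM in leaf, at -1.13 ± 0.20 SE (adjusted p = 0.0139, edgeR). By contrast GUN4, which stimulates magnesium chelatase, had 75.0, 94.9 and 92.1 FPKM in callus, against 48.1, 53.9 and 73.0 FPKM in leaf, each callus library above each leaf library but not called at 0.57 ± 0.23 SE (adjusted p = 0.111, edgeR). LIL3, a membrane anchor of GGDR, had 104, 124 and 119 FPKM in callus, against 132, 126 and 148 FPKM in leaf, at -0.20 ± 0.17 SE (adjusted p = 0.419, edgeR).

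Chloroplast glutamate-tRNA ligase (GluRS), which charges the tRNA that GluTR uses, had 31.3, 35.5 and 31.4 FPKM in callus, against 76.5, 61.5 and 64.7 FPKM in leaf, at -1.03 ± 0.16 SE (adjusted p = 0.0101, edgeR). The GLK transcription factors, activators of genes of the chloroplast, had 54.8, 105 and 74.6 FPKM in callus, against 94.4, 87.2 and 90.2 FPKM in leaf, overlapping and at -0.19 ± 0.24 SE (adjusted p = 0.585, edgeR), while HY5, an activator of light responses, was lower at -1.37 ± 0.35 SE (adjusted p = 0.0342, edgeR). Among other breakdown genes, HCAR, which completes the conversion of chlorophyll b to a, had 17.4, 18.9 and 23.4 FPKM in callus, against 51.5, 54.0 and 41.9 FPKM in leaf, at -1.32 ± 0.22 SE (adjusted p = 0.0113, edgeR). Chlorophyllase, which removes phytol, was called at -1.35 ± 0.37 SE (adjusted p = 0.0442, edgeR) although its summed FPKM overlapped, with 17.6, 22.7 and 23.1 FPKM in callus, against 43.4, 19.4 and 37.2 FPKM in leaf. STAY-GREEN, which removes magnesium, had 25.5, 27.1 and 26.2 FPKM in callus, against 53.6, 47.6 and 32.9 FPKM in leaf, and RCCR, which reduces the opened ring, had 51.5, 47.7 and 43.9 FPKM in callus, against 79.7, 64.3 and 92.8 FPKM in leaf. These 2 were not called (edgeR adjusted p = 0.0993 and edgeR adjusted p = 0.0538).

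**Figure D5:**
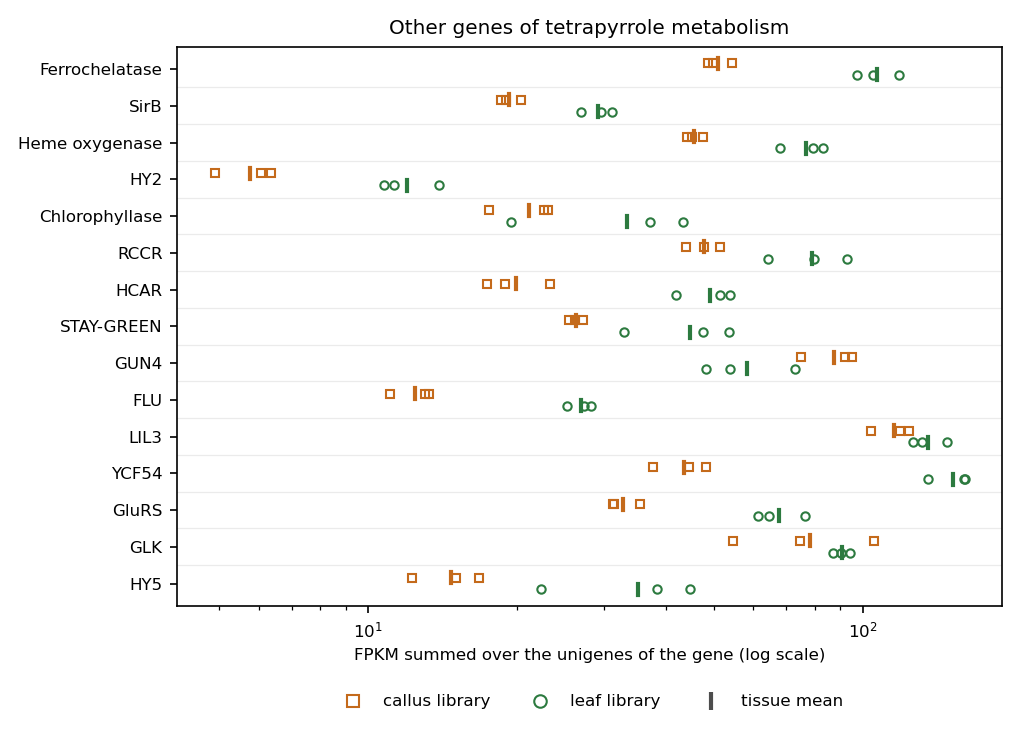
FPKM summed over the unigenes of 15 other genes of tetrapyrrole metabolism, on a log scale, for the 3 callus libraries (squares) and the 3 leaf libraries (circles), with a bar at each tissue mean. Callus lies below leaf for 12 of them, above it for GUN4, and overlaps leaf for chlorophyllase and GLK. Among all unigenes tested 25.5% lay below and 28.4% above.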

How the data were processed

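Per the labels and the study's methods, poly(A) RNA of 3 callus and 3 leaf samples was read as 150 bp pairs, contigs were assembled de novo, and reads were aligned with Bowtie2 2.2.5 and counted with RSEM 1.2.8 (versions from the submitters' processing notes). The expected counts and FPKM values of each unigene were deposited by the authors, and RSEM divides reads shared by similar contigs. FPKM divides each count by contig length and library depth, and entries of NA were read as 0. The authors' columns of tissue means, log2 fold changes, p and q values were not used. No strand was stated.

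Expected counts were rounded and tested in edgeR 4.0.16 (R 4.3.3; TMM scaling, filterByExpr, quasi-likelihood F test, Benjamini-Hochberg adjustment), on unigenes, on clusters, and with the members of each enzyme summed. Standard errors were derived from the F statistic. DESeq2 1.42.0, limma 3.58.1 on log2(FPKM + 0.01) and log2(FPKM + 1) with FPKM above 0 in at least 3 libraries, other scaling, no filter, each library left out and peanut matches left out were the alternatives. The code of the fit was also run on simulated counts, which does not test the calls made here. Libraries were no copies of each other, with chi-square over degrees of freedom of 14.4 or more for every pair. Named unigenes were the most abundant of each enzyme, of each SwissProt name with a mean FPKM of 5 or more, and in each tissue where these differed. Members and lists were chosen with earlier results of these data known. Python 3.11.15 with pandas 2.3.3, numpy 2.4.6 and matplotlib 3.10.9 was used for summaries and plots. Labels state the samples as biological replicates, but not which plants they came from.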

Additional observations from a re-analysis of the deposited data

Results flagged for a closer look

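The 37 unigenes with an enzyme name that were skipped for a peanut match, which no comparison uses, summed to 102.37 FPKM in leaf replicate 1, against 2.49 FPKM in leaf replicate 2 and 0 in leaf replicate 3 and in each callus library. Their signal was thus nearly confined to 1 leaf library.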

How the results depend on the processing

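Members called higher and lower numbered 8 and 45 in edgeR, 4 and 19 with no filter on low counts, and 13 and 68 in DESeq2. With limma on log2(FPKM + 1) 15 were higher and 55 lower. With a library left out, between 1 and 7 members were higher and between 5 and 48 lower. At an adjusted p of 0.001 and a 2-fold change, edgeR called 0 higher and 0 lower, with 90 members under an unadjusted p of 0.05, and DESeq2 called 5 higher and 27 lower. Summed enzymes called higher and lower numbered 2 and 19, but 1 and 9 with no filter, and between 0 and 1 and between 3 and 18 with a library left out. At the stricter threshold they numbered 0 and 0 in edgeR, and 0 and 7 in DESeq2. Apart from the main edgeR fit and the DESeq2 sums at that threshold, shares over all rows were not worked out. The other counts of members and enzymes are therefore not set against the whole table. The direction of 4 unigenes that were not called turned. CL7150.Contig3_All had log2 fold changes of 0.0062 with DESeq2 size factors, 0.0826 with no filter, 0.0683 in DESeq2, and 0.28 and 0.24 in limma with 0.01 and 1 added, and lay between -0.48 and 0.34 with a library left out. CL3004.Contig2_All was at 0.0736 with no filter, 0.0439 in DESeq2 and between -0.18 and 0.15 with a library left out. CL9584.Contig2_All lay between -0.13 and 0.19, and CL6881.Contig1_All between -0.69 and 0.0646, with a library left out. The median log2 fold change of all unigenes was -0.10, -0.82 with no filter and -0.88 in DESeq2, which keep low counts. Leaving out peanut matches changed no call of the 27 sums or 35 named unigenes. Fits on clusters and sums of the other tetrapyrrole genes were not repeated with a library left out. The cause of the lost calls was not tested. No paired analysis was possible because the labels give the tissues no shared replicate numbers. Depth was alike in all libraries.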

Other observations

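A KEGG number of one of the enzymes was carried by 29 further unigenes that no SwissProt name found, and these were left out of all sums. Counts were 0 in every callus library but not in leaf for 16 of the 207 members with counts, or 7.73%, and for 23.3% of all unigenes with counts. They were 0 in every leaf library but not in callus for 4 members, or 1.93%, and for 6.92% of all unigenes with counts. The ratio of SUMT to UROD, the enzymes that compete for uroporphyrinogen III, was 0.903, 0.238 and 0.2999 in callus, against 0.0334, 0.0622 and 0.0722 in leaf, with callus replicate 1 above the other libraries.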
